A study of Homo sapiens with 12 samples.

Results

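The genes described here are 9 genes of the osteoblast and mesenchymal lineage, chosen by name as a list and read from the 23434 rows of the count table: the transcription factors RUNX1, RUNX2, TWIST1, TWIST2, MSX1 and MSX2, the signalling protein BMP4, and the bone products ALPL and SPP1. All 9 have a row, and 5 of them (RUNX1, RUNX2, MSX1, MSX2 and BMP4) had enough counts to be tested in every comparison. TWIST1, TWIST2, ALPL and SPP1 lay under the filter on low counts, a mean normalized count of 32, and are described by their counts. The cells were U2OS-MycER, an osteosarcoma (bone tumour) line of human origin with a Myc–estrogen receptor chimera (MycER) that 4-hydroxytamoxifen (OHT) activates. Newly made RNA was measured by EU-seq: cells took up 0.5 mM 5-ethynyl-uridine (EU) during the last 2 h of culture, and the RNA carrying it was captured and sequenced.

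The 12 libraries form 4 groups of 3: cells with a non-targeting shRNA (shNT), shNT cells given OHT (shNT+OHT), cells labelled as carrying an shRNA against CDK12 (shCDK12), and such cells given OHT (shCDK12+OHT). All groups carried the MycER transgene and had the shRNA switched on by doxycycline at 1 µg/mL. OHT was at 300 nM for 40 h. Every culture was then arrested with nocodazole at 100 ng/mL for 8 h, the mitotic cells were shaken off, and they were collected 12 h after release, so that the values describe synchronized cells of 1 transformed line. Whether the 3 libraries of a group come from separate cultures is not stated. The p-values set each difference against the spread between these libraries, as estimated with the help of all genes tested.

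In development, mesenchymal progenitors become osteoblasts under the control of RUNX2, a DNA-binding factor that works with its partner CBFB. Bone morphogenetic proteins (BMPs) such as BMP4 bind paired receptors on the cell surface, the receptors phosphorylate SMAD proteins, and these enter the nucleus and switch on genes such as the ID family and the MSX homeobox genes. TWIST proteins are basic helix-loop-helix (bHLH) factors that hold back RUNX2 and keep cells in the progenitor state. ALPL, the tissue-nonspecific alkaline phosphatase, removes an inhibitor of mineral deposition, and SPP1 encodes osteopontin, a secreted matrix protein that cells bind through integrins and CD44.

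The promoters of the RUNX pair and of the MSX pair are shown because, as given further on, the genes within each pair moved the same way. For each gene the first RefSeq promoter entry on GRCh38.p14 is shown, and other start sites of the gene were not examined. Each window runs from 250 bases before to 50 bases after the start of that entry, 5′ to 3′ on the gene's own strand. The counts themselves were made on hg19. Capitals mark a match to TGTGGT, the core of the site that RUNX proteins bind, on either strand.
RUNX1 (chr21:34888650-34888949, - strand): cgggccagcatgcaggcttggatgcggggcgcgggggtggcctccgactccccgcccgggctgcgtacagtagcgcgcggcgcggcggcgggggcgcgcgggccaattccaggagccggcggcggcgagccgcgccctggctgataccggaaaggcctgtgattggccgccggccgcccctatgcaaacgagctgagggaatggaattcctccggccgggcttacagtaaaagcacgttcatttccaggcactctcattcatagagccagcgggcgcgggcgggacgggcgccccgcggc
RUNX2 (chr6:45328080-45328379, + strand): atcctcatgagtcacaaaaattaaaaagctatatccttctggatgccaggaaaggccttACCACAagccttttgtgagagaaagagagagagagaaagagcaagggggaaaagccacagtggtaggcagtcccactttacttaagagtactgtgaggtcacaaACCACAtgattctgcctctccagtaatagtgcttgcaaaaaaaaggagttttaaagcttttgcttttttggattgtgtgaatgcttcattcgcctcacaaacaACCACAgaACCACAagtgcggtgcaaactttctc
MSX1 (chr4:4859415-4859714, + strand): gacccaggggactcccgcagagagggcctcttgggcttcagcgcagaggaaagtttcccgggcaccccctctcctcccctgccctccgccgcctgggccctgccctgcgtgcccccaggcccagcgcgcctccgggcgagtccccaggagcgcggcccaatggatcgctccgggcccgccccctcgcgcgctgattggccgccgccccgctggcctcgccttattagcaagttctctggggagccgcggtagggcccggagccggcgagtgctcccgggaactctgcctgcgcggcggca
MSX2 (chr5:174724332-174724631, + strand): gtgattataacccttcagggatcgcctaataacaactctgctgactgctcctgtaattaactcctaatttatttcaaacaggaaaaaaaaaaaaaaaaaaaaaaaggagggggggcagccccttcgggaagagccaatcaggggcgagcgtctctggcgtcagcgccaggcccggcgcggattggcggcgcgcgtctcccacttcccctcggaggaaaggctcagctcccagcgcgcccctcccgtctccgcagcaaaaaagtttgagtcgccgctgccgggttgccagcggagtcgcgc

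The RUNX2 window holds 4 matches to the RUNX core, at -191, -87, 17 and 25 relative to the first transcribed base, all on the opposite strand. The other 3 windows shown hold none. SPP1 is the only other member with such a match, at -142, and 13.1% of 35116 RefSeq promoter windows of this length have at least 1. The E-box CACGTG, which Myc binds with its partner MAX, occurs among the members at ALPL alone, with matches at -83 and -55, against 7.26% of all windows. The homeobox core TAATTG, as bound by MSX proteins, is in 0 of the 8 member windows and in 7.38% of all. TWIST1 has no entry in the table. The 2 RUNX windows differ in composition: that of RUNX1 is 72% G and C with 40 CpG dinucleotides and that of RUNX2 42.7% with 2, while the MSX windows hold 31 (MSX1) and 24 (MSX2). Whether the RUNX1 and RUNX2 entries are corresponding promoters of the 2 genes was not examined. A match in letters is a description of the sequence and says nothing of binding in these cells.

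Library depth ran from 1251695 to 10447836 counts, an 8.35-fold range, with the shNT and shNT+OHT groups the shallowest and shNT+OHT replicate 2 the lowest of all. A floor of 3 counts corresponds to between 0.285 and 2.47 CPM (counts relative to the library total, after TMM scaling); intervals and floors cover counting error only. CDK12, the gene to be silenced, did not change past the threshold under the label shCDK12 without OHT. Its mean was 289 ± 10.9 CPM (SD, n = 3) under the label shCDK12, where shNT had 304 ± 17.4 CPM (adjusted p = 0.447, edgeR). With OHT it was lower, at 214 ± 5.09 CPM under shCDK12+OHT, where shNT+OHT had 397 ± 38.7 CPM. That log2 fold change was -0.88 (SE 0.11, adjusted p = 0.00011, edgeR). An shRNA acts on RNA already made, so newly made RNA need not show the silencing, and these values cannot settle the labels. The groups are therefore called the libraries labelled shCDK12 and shCDK12+OHT, and each direction given for them carries this doubt.

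The lineage was checked by markers. By mean level VIM, encoding vimentin, and FN1, encoding fibronectin, were the highest of the 9 mesenchymal markers. They were at 169 to 344 and 35.2 to 669 CPM over the 12 libraries. NT5E, the lowest, had 107 counts in all, at 0 to 2.85 CPM. The rest had means from 19.8 (ENG) to 59.3 CPM (THY1). Their lowest libraries were at 8.65 CPM for ENG, 8.80 for PDGFRA and 8.88 for PDGFRB. Of the 9 osteoblast markers only SPARC (71.3 to 204 CPM) and COL1A1 (44 to 165 CPM) were measured well. CDH11 was at 0.210 to 13.9 CPM, and the rest had few counts. Over all 12 libraries there were 4 for BGLAP (osteocalcin), 9 for IBSP (bone sialoprotein) and 19 for COL1A2. DMP1 had 43, SP7 (osterix) 48 and PHEX 90. The cartilage factor SOX9 was at 297 to 947 CPM, but the other chondrocyte markers had means from 0.096 (COMP) to 7.09 CPM (SOX6). The epithelial keratins KRT8 and KRT18 were at 227 to 579 CPM. Means of the other epithelial markers reached at most 8.15 CPM (CDH1), and KRT19 had 0 counts in every library. Of the muscle markers MYF5 had 0 counts in every library, MYOG 4 and MYOD1 13 in all, DES 246 and TNNT1 485. The genes are thus read in cells that make most of the listed mesenchymal transcripts but few of the listed osteoblast transcripts.

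RUNX1 and RUNX2 were both lower in the libraries labelled shCDK12 than in shNT, RUNX2 by 3.60-fold and RUNX1 by 2.23-fold, and both were higher again in the libraries labelled shCDK12+OHT. RUNX2 also fell upon OHT in shNT cells. The 4 groups came in the same order for both genes, with shNT the highest, then shNT+OHT, shCDK12+OHT and shCDK12.

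RUNX2, the master regulator of osteoblast fate (chromosome 6), was at 233, 233 and 188 CPM in the 3 shNT libraries and at 114, 146 and 146 CPM in shNT+OHT. In the libraries labelled shCDK12 it was at 64.2, 61.5 and 57.6 CPM, and in those labelled shCDK12+OHT at 109, 109 and 110 CPM. No 2 groups overlapped, but the lowest shNT+OHT library lay close to the shCDK12+OHT libraries. The log2 fold change was -0.70 (SE 0.14, adjusted p = 0.00399, edgeR's quasi-likelihood test, adjusted by Benjamini-Hochberg over all genes tested) upon OHT in shNT cells and -1.85 (SE 0.10, adjusted p = 6.68e-14, edgeR) in the libraries labelled shCDK12 against shNT. From shCDK12 to shCDK12+OHT, as labelled, it was 0.84 (SE 0.090, adjusted p = 6.63e-07, edgeR). These 3 calls held in each fit that left out 1 library. Between the OHT groups the difference was -0.28 (adjusted p = 0.0968, edgeR), and it passed the threshold without shNT+OHT replicate 1 (adjusted p = 0.00249). SUPT3H, which overlaps RUNX2 on the opposite strand, had 16 counts in all 12 libraries, at 0 to 1.17 CPM.

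RUNX1, a RUNX factor best known from blood formation (chromosome 21), was the most abundant member, with 25212 counts in all. Its level was 630, 657 and 634 CPM in shNT and 530, 572 and 476 CPM in shNT+OHT. It was 275, 286 and 304 CPM in the libraries labelled shCDK12 and 370, 356 and 334 CPM in those labelled shCDK12+OHT. The 4 groups did not overlap. The log2 fold change was -1.15 (SE 0.079, adjusted p = 3.91e-12, edgeR) in shCDK12 against shNT as labelled, -0.55 (SE 0.10, adjusted p = 0.00157) between the groups with OHT, and 0.29 (SE 0.075, adjusted p = 0.00359) from shCDK12 to shCDK12+OHT. Upon OHT in shNT cells the value was -0.29 (SE 0.11, adjusted p = 0.0738), which did not pass, although without shNT+OHT replicate 1 or replicate 2 the adjusted p was 0.0364 and 0.0416.

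MSX1 and MSX2, homeobox factors that act downstream of BMP signals in craniofacial bone, went the other way. Both were higher in the libraries labelled shCDK12 than in shNT, by 2.36-fold and 2.67-fold, and both were lower in shCDK12+OHT than in shCDK12. Neither passed the test upon OHT in shNT cells. MSX1 (chromosome 4) was at 43.1, 28.7 and 28.6 CPM in shNT, 26.6, 35.5 and 38.0 CPM in shNT+OHT, 73.0, 80.7 and 86.2 CPM in shCDK12 and 50.9, 53.8 and 56.4 CPM in shCDK12+OHT. MSX2 (chromosome 5) was at 22.5, 32.2 and 16.5 CPM in shNT, 23.8, 33.8 and 28.4 CPM in shNT+OHT, 62.8, 68.2 and 67.4 CPM in shCDK12 and 48.1, 48.2 and 44.8 CPM in shCDK12+OHT. For both genes the shNT and shNT+OHT libraries overlapped, and all 6 of these lay below all 6 libraries labelled shCDK12 with or without OHT.

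The log2 fold change of MSX1 in shCDK12 against shNT was 1.24 (SE 0.15, adjusted p = 1.33e-07, edgeR) and that of MSX2 1.42 (SE 0.17, adjusted p = 6.25e-08). From shCDK12 to shCDK12+OHT MSX1 fell by 0.58 (SE 0.099, adjusted p = 0.000111) and MSX2 by 0.49 (SE 0.098, adjusted p = 0.000472) on the log2 scale. With OHT in both groups the libraries labelled shCDK12 were still higher, by 0.72 (SE 0.17, adjusted p = 0.00542) for MSX1 and 0.77 (SE 0.17, adjusted p = 0.00399) for MSX2. Upon OHT in shNT cells the values were -0.024 (SE 0.24, adjusted p = 0.957) for MSX1, whose sign was not stable and was 0.14 without shNT+OHT replicate 1, and 0.22 (SE 0.26, adjusted p = 0.616) for MSX2. No annotated gene overlaps either MSX gene.

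BMP4, the ligand of the list (chromosome 14), was at 93.2, 73.0 and 78.7 CPM in shNT. It was at 71.7, 28.0 and 51.3 CPM in shNT+OHT, where the lowest value rests on 34 counts in the shallowest library. In the libraries labelled shCDK12 it was at 49.6, 41.7 and 49.8 CPM and in those labelled shCDK12+OHT at 40.6, 43.6 and 34.8 CPM. The shNT libraries lay above all others, and the other 3 groups overlapped each other in part. BMP4 fell in shCDK12 against shNT, as labelled, by 0.81 on the log2 scale (SE 0.13, adjusted p = 1.14e-05, edgeR). Upon OHT it was at -0.64 (SE 0.24, adjusted p = 0.0784) in shNT cells, a value that ran from -0.38 without shNT+OHT replicate 2 to -0.92 without shNT+OHT replicate 1 (adjusted p = 0.00104 for the latter), and -0.22 (SE 0.12, adjusted p = 0.133; 0.0299 without shCDK12 replicate 2) in the libraries labelled shCDK12. Between the OHT groups it was -0.38 (SE 0.25, adjusted p = 0.224), and ran from -0.12 without shNT+OHT replicate 1 to -0.64 without shNT+OHT replicate 2 (adjusted p = 0.0159 for the latter). BMP4 differed from the RUNX genes in that it did not come back up in the libraries labelled shCDK12+OHT.

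**Figure D1:**
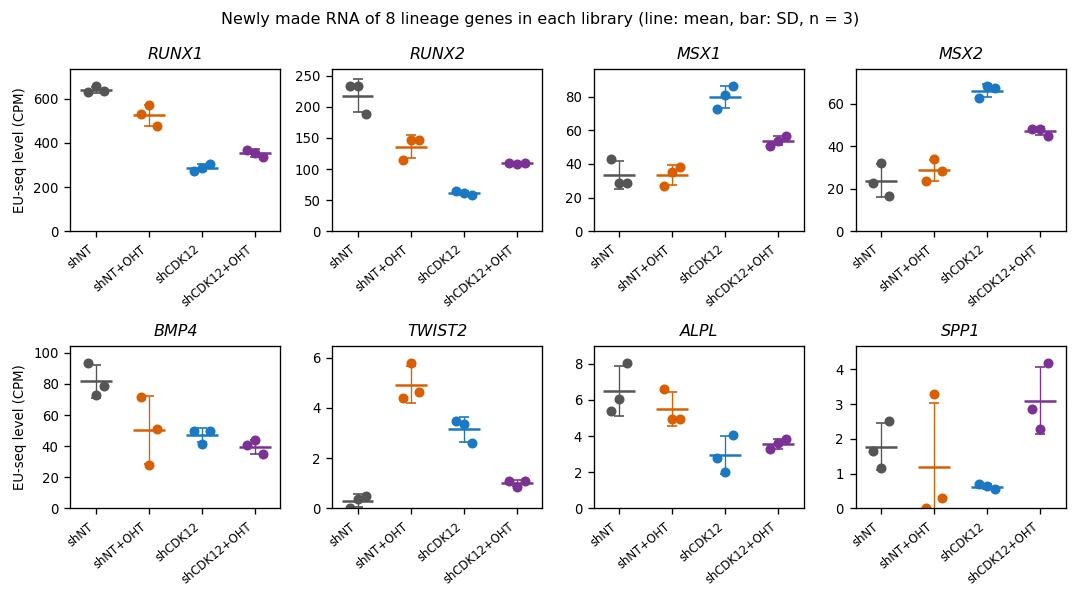
Level of newly made RNA (CPM, linear axis from 0, own scale for each gene) of 8 members in each of the 12 libraries by group; points are libraries, lines are means and bars SD (n = 3). RUNX1 and RUNX2 are highest in shNT and lowest in the libraries labelled shCDK12, MSX1 and MSX2 are highest in the libraries labelled shCDK12, and TWIST2 is lowest in shNT.

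The counts of tested members past the threshold are read against all genes. Upon OHT in shNT cells (shNT+OHT against shNT) 1 of the 5 tested members passed, RUNX2, which was lower, against 17.3% of all genes (9.05% higher and 8.29% lower). In shCDK12 against shNT 5 of 5 passed, 2 higher and 3 lower, against 62% of all genes (29.6% higher and 32.4% lower). In shCDK12+OHT against shCDK12 4 of 5 passed, 2 higher and 2 lower, against 48.9% (27.5% higher and 21.5% lower). In shCDK12+OHT against shNT+OHT 3 of 5 passed, 2 higher and 1 lower, against 45.4% (23.8% higher and 21.6% lower). Groups whose libraries did not overlap were common across the table too, at 35.9%, 64.5%, 56.3% and 55.2% of all genes tested in the same comparisons. The share of genes separated across more than 2 groups was not counted, nor that among genes under the filter. With so few genes and such broad change in the table, these counts do not set the members apart. Comparisons that have a group in common are not independent: shCDK12 against shNT and shCDK12+OHT against shCDK12 share the libraries labelled shCDK12, so a low or high value there enters both with opposite signs.

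**Figure D2:**
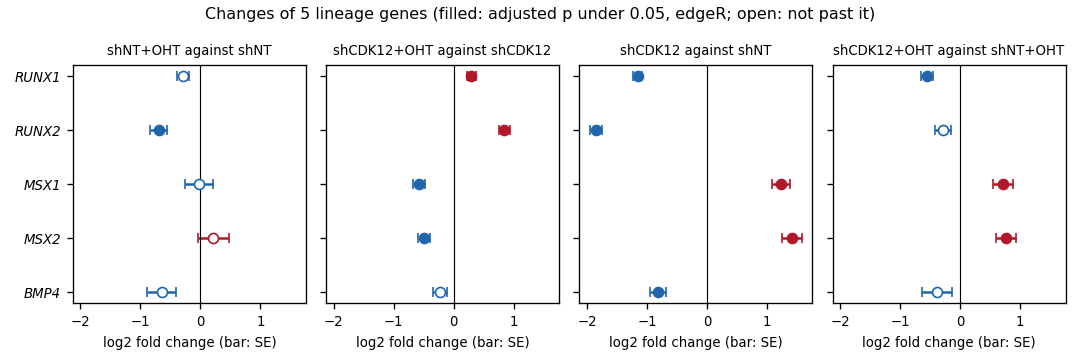
Log2 fold changes (horizontal axis, bars SE) of the 5 tested members in 4 comparisons; red is higher and blue lower in the first-named group, and filled points passed an adjusted p of 0.05 in edgeR. From shCDK12 to shCDK12+OHT, as labelled, the RUNX genes lie to the right of 0 and the MSX genes to the left, the reverse of their places in shCDK12 against shNT.

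The response to OHT was compared between the backgrounds as an interaction over all 12 libraries, a test passed by 45.2% of all genes (25.6% higher and 19.6% lower) and by 3 of the 5 tested members. RUNX2 responded higher in the libraries labelled shCDK12 than in shNT cells by 1.54 on the log2 scale (SE 0.17, adjusted p = 5.39e-07, edgeR) and RUNX1 by 0.58 (SE 0.13, adjusted p = 0.00102), and both held in each of the 12 fits without 1 library. The response of MSX2 was lower by 0.66 (SE 0.26, adjusted p = 0.0411), a call that was lost in 9 of the 12 fits without 1 library, with an adjusted p up to 0.0982 (without shNT replicate 1). MSX1, at -0.54 (SE 0.24, adjusted p = 0.0681), and BMP4, at 0.39 (SE 0.28, adjusted p = 0.264), did not pass. MSX1 passed without shNT replicate 1 (adjusted p = 0.0103) or shNT+OHT replicate 1 (0.0107), and BMP4 without shNT+OHT replicate 1 (0.0147).

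The 4 members with few counts were not alike. TWIST2 (chromosome 2) had 0, 2 and 1 counts in the shNT libraries and 14, 7 and 16 in shNT+OHT. It had 15, 32 and 14 counts in the libraries labelled shCDK12 and 8, 9 and 6 in those labelled shCDK12+OHT. On the CPM scale it was at 0 to 0.501 in shNT, 4.39 to 5.77 in shNT+OHT, 2.59 to 3.47 in shCDK12 and 0.856 to 1.09 in shCDK12+OHT, and no 2 groups overlapped. Summed over the group and corrected for depth, the ratio of shNT+OHT to shNT was 17.9 (95% exact interval 5.66 to 90.7, counting error only) and that of shCDK12 to shNT, as labelled, 12.0 (3.93 to 59.9). The ratio of shCDK12+OHT to shCDK12 was 0.310 (0.183 to 0.509). In fits without the filter on low counts the adjusted p for these 3 differences was 0.00334, 0.000147 and 0.00191 (edgeR), and the first was 0.0507 without shNT replicate 1.

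TWIST2 was thus higher upon OHT in shNT cells and lower from shCDK12 to shCDK12+OHT, as labelled. Its interaction in the fit without the filter had an adjusted p = 9.25e-07 (edgeR), and it passed in each of the 12 fits without 1 library. With OHT in both groups the libraries labelled shCDK12+OHT were lower than shNT+OHT, at a ratio of 0.209 (0.118 to 0.361; adjusted p = 0.00479 from edgeR without the filter). TWIST1 (chromosome 7), the close relative of TWIST2, had 2 counts in the whole table, both in 1 library labelled shCDK12, so that no change could be detected at this depth.

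SPP1 (chromosome 4) had 7, 6 and 5 counts in shNT, 0, 4 and 1 in shNT+OHT, 3, 6 and 3 in the libraries labelled shCDK12 and 21, 24 and 23 in those labelled shCDK12+OHT. The ratio of shCDK12+OHT to shCDK12 was 4.66 (95% exact interval 2.50 to 9.47; adjusted p = 0.000131 from edgeR without the filter), and it passed in each of the 6 fits without 1 library. On the CPM scale the libraries labelled shCDK12+OHT, at 2.28 to 4.17, overlapped those of shNT at 1.17 to 2.51 and shNT+OHT at 0 to 3.30. The osteopontin gene was therefore higher than in the libraries labelled shCDK12, at 0.555 to 0.695 CPM, while against shNT+OHT the log2 fold change was 2.11 (adjusted p = 0.0636). Without shNT+OHT replicate 2, the shallowest library, which holds 4 of the 5 counts of its group, that value was 4.15 (adjusted p = 0.00511). The interaction had an adjusted p = 0.014 (edgeR without the filter), and 0.0644 without shCDK12+OHT replicate 3.

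ALPL (chromosome 1) had 6 to 38 counts in a library. It was at 5.39, 6.05 and 8.02 CPM in shNT, 6.58, 4.95 and 4.93 CPM in shNT+OHT, 2.78, 1.99 and 4.07 CPM in shCDK12 and 3.26, 3.61 and 3.81 CPM in shCDK12+OHT. The 6 libraries of shNT cells lay above the 6 labelled shCDK12. The ratio of shCDK12 to shNT, as labelled, was 0.448 (95% exact interval 0.307 to 0.649; adjusted p = 0.0196 from edgeR without the filter), and the call was lost without shNT replicate 3 or shCDK12 replicate 2 (adjusted p up to 0.14). The other comparisons of ALPL did not pass.

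Levels of different genes can be compared only per length, and whether reads in introns were counted is not stated. Exon length here is that of all annotated exons of a gene merged, over all its transcripts. For SPP1 it is 7.25 kb of a span of 7.70 kb, so its level per kb of exon rests on nearly the whole gene. Per kb of exon, mean levels in shNT were 41.1 CPM for RUNX1, 26.6 for RUNX2, 26.4 for BMP4, 15.8 for MSX1, 10.7 for MSX2, 2.18 for ALPL, 0.244 for SPP1 and 0.139 for TWIST2. Per kb of the whole gene the order changed, with BMP4 at 11.4, MSX1 at 7.83, MSX2 at 3.76, RUNX1 at 2.45 and RUNX2 at 0.979 CPM, because the RUNX genes span 262 kb (RUNX1) and 223 kb (RUNX2) and the MSX genes 4.27 kb (MSX1) and 6.32 kb (MSX2). On both scales MSX1 was above MSX2 and RUNX1 above RUNX2 in shNT.

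Gene length moved with the groups as well. Among genes spanning over 200 kb, a class chosen after the values of the RUNX genes were seen, the median log2 fold change was -0.24 upon OHT in shNT cells, -0.060 in shCDK12 against shNT and 0.19 from shCDK12 to shCDK12+OHT. Among genes under 10 kb it was 0.20, 0.032 and -0.040. In shCDK12 against shNT the 10th percentile of the long class was -1.15, so that RUNX2 at -1.85 lay below it and RUNX1 at it. Upon OHT in shNT cells RUNX2, at -0.70, lay inside the range of the class, whose 10th percentile was -0.77. In the interaction the long class had a median of 0.45 and a 90th percentile of 1.49, with 37.1% of its genes called higher. RUNX1 at 0.58 thus lay near the median of long genes, and RUNX2 at 1.54 just above the 90th percentile. The part of length in the members' results was not tested.

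The summed level of the 9 mesenchymal markers, mostly FN1 and VIM, had the same order of groups as the RUNX genes. It was 1343 to 1350 CPM in shNT, 879 to 977 CPM in shNT+OHT, 330 to 356 CPM in the libraries labelled shCDK12 and 417 to 419 CPM in those labelled shCDK12+OHT. Of the 9 markers 5 had this order of group means (FN1, CDH2, THY1, PDGFRA and PDGFRB), and FN1 alone went from 659 CPM in shNT to 38.2 CPM in shCDK12. VIM, ENG, COL3A1 and NT5E did not: VIM was at 323, 330, 180 and 174 CPM in shNT, shNT+OHT, shCDK12 and shCDK12+OHT. In shCDK12 against shNT 6 of the 8 tested markers were lower and 1 higher, where 32.4% of all genes were lower and 29.6% higher. The 9 osteoblast markers, mostly SPARC and COL1A1, summed to 345 to 365, 209 to 258, 125 to 140 and 184 to 194 CPM in the same groups, and the 7 chondrocyte markers, mostly SOX9, to 931 to 977, 724 to 868, 316 to 414 and 515 to 568 CPM. The 6 epithelial markers summed to 693 to 765, 680 to 830, 652 to 752 and 886 to 970 CPM, the 6 adipocyte markers to 27.2 to 32.6, 35.4 to 41.2, 67.6 to 79.0 and 64.9 to 66.9 CPM, and the 5 muscle markers stayed between 7.77 and 21.6 CPM. The 5 blood cell markers were at most at 5.77 CPM in sum. In bulk libraries fewer cells of a kind and less RNA per cell cannot be told apart, and the part of these shifts in the members' results was not tested.

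The genes around the members are given by role, from lists chosen with earlier results of these data known. Their counts are to be read against all genes, of which 29.6% were higher and 32.4% lower in shCDK12 against shNT, 27.5% and 21.5% in shCDK12+OHT against shCDK12, and 9.05% and 8.29% in shNT+OHT against shNT. Nothing particular to a list is read from them. Of 9 RUNX partners and cofactors 6 were tested, and in shCDK12 against shNT 2 were higher and 4 lower, the median log2 fold change being -0.40, where that of all genes was -0.027. RUNX3, the third RUNX factor, fell by 2.93 on the log2 scale (SE 0.20, adjusted p = 5.71e-12, edgeR) and SMURF2, a ubiquitin ligase of the BMP and TGF-beta pathways, by 1.07 (SE 0.11, adjusted p = 3.59e-09). RUNX3 moved as RUNX2 did upon OHT: it fell by 0.79 upon OHT in shNT cells (adjusted p = 0.0128) and rose by 0.85 from shCDK12 to shCDK12+OHT (adjusted p = 0.0039). Of the 10 DLX and other homeobox relatives 3 were tested in shCDK12 against shNT, and PITX1, a limb homeobox factor, rose by 1.08 (adjusted p = 0.000522) and then fell by 1.13 from shCDK12 to shCDK12+OHT (adjusted p = 0.000137), the directions of the MSX genes.

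Of 13 bHLH partners and mesenchymal transcription factors 12 were tested in shCDK12 against shNT, with 7 higher and 3 lower and a median log2 fold change of 1.04. SNAI2, a repressor that drives epithelial-mesenchymal transition, fell by 2.40 (SE 0.11, adjusted p = 9.47e-16, edgeR), and its relative SNAI1 rose by 1.30 (SE 0.10, adjusted p = 3.8e-11). All 4 ID genes, BMP targets whose proteins block bHLH factors such as TWIST, rose, from 1.01 for ID1 to 2.00 for ID4 (adjusted p = 1.76e-11 for ID4). From shCDK12 to shCDK12+OHT 2 of the 12 were higher and 5 lower, with PRRX1, a limb mesenchyme factor, at -2.51 (SE 0.26, adjusted p = 4.13e-07) and HAND2, a bHLH factor that pairs with TWIST, at -1.30 (adjusted p = 0.00019). Upon OHT in shNT cells SNAI2 fell by 1.15 (adjusted p = 9.18e-05) and SNAI1 rose by 0.93 (adjusted p = 0.00135), among 3 higher and 2 lower of 10 tested.

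Among the other BMP ligands, 3 of 6 tested were higher in shCDK12 against shNT and 0 lower, where BMP4 was lower. BMP2, the close relative of BMP4, rose by 2.05 (SE 0.13, adjusted p = 1.06e-12, edgeR) and BMP8B by 1.36 (SE 0.31, adjusted p = 0.000549). BMP2 then fell by 0.93 from shCDK12 to shCDK12+OHT (adjusted p = 8.45e-07), as did BMP6 by 1.53 (adjusted p = 8.21e-07). Of the 10 receptors and SMADs 2 were higher and 4 lower in shCDK12 against shNT, led by the type II receptor BMPR2 at -1.22 (SE 0.10, adjusted p = 2.88e-10) and the type I receptor ACVR1 at -0.84 (adjusted p = 5.85e-05), and 4 were higher and 0 lower from shCDK12 to shCDK12+OHT. Of the 7 BMP inhibitors tested 1 was higher and 4 lower in shCDK12 against shNT. BAMBI, a decoy receptor that BMP signals themselves induce, rose by 2.76 (SE 0.14, adjusted p = 7.32e-15), while chordin (CHRD) fell by 1.96 (SE 0.25, adjusted p = 3.12e-07). Noggin (NOG), another protein that binds BMPs outside the cell, was at -1.79 (adjusted p = 5.48e-08). Ligands and inhibitors thus each held genes that moved both ways.

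**Figure D3:**
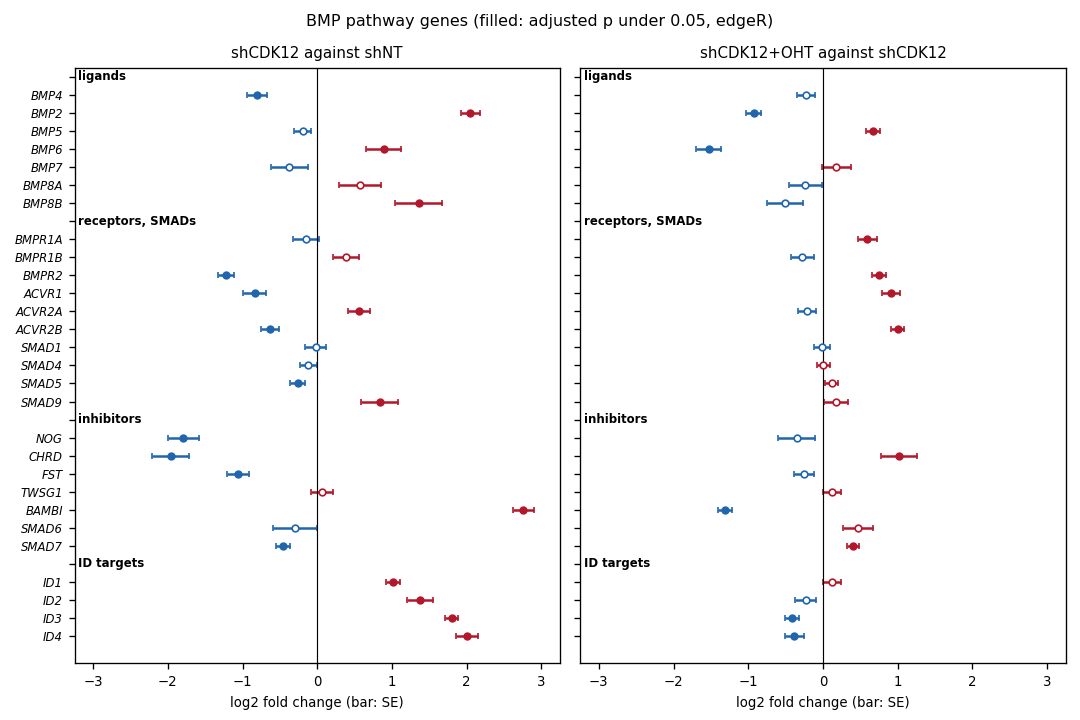
Log2 fold changes (horizontal axis, bars SE) of tested BMP ligands, receptors and SMADs, inhibitors and ID targets, with BMP4 at the top; filled points passed an adjusted p of 0.05 in edgeR. In shCDK12 against shNT, as labelled, BMP4 lies left of 0 while BMP2, BAMBI and the 4 ID genes lie right of it, and from shCDK12 to shCDK12+OHT BMP2 and BAMBI lie left of 0.

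Of the 23 genes of osteoblast maturation and bone matrix 10 were tested in shCDK12 against shNT, with 4 higher and 4 lower. GJA1, the gap junction protein connexin 43 of osteoblasts, rose by 2.25 (SE 0.10, adjusted p = 1.64e-15, edgeR) and FGFR3, a growth factor receptor of cartilage and bone, by 2.00 (adjusted p = 1.91e-06). COL1A1, the main collagen of bone, fell by 1.80 (SE 0.11, adjusted p = 2.84e-13). GJA1 was also higher upon OHT in shNT cells, by 1.65 (adjusted p = 7.18e-06), and fell by 2.06 from shCDK12 to shCDK12+OHT (adjusted p = 1.32e-11), the same signs as TWIST2. Of the 5 osteopontin receptors 4 were tested. ITGAV, ITGB1, ITGB5 and CD44 were lower in shCDK12 against shNT, from -1.02 (ITGB1) to -1.36 (ITGAV), and higher from shCDK12 to shCDK12+OHT, from 0.42 (ITGB1) to 0.83 (ITGB5), where SPP1 was higher as well. All 8 of these values passed, with an adjusted p of at most 0.000284 (edgeR), where 32.4% of all genes were lower in the first comparison and 27.5% higher in the second. Of 9 genes of phosphate and pyrophosphate handling, the substrate field of ALPL, 4 were tested and 1 was higher and 2 lower in shCDK12 against shNT. The phosphate importer SLC20A1 fell by 1.65 (SE 0.076, adjusted p = 1.67e-15) and its relative SLC20A2 by 0.76 (adjusted p = 0.000265).

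The pattern over the 12 libraries was also compared between genes, by Pearson r of log2 CPM. RUNX1 and RUNX2 had an r of 0.93 with each other and MSX1 and MSX2 of 0.89, while RUNX1 with MSX1 was at -0.91. Within the groups, after each group's mean was removed, r was -0.15 for the RUNX pair and 0.20 for the MSX pair. RUNX2 had a within-group r of 0.60 with MSX1 and 0.72 with MSX2, opposite in sign to -0.83 and -0.84 over the 12 libraries. The genes most like RUNX1 were PCDH7 (r = 0.99), SERTAD4 and ZFP36L1, and those most like RUNX2 were CLTC (r = 0.99), EDIL3 and VMP1. Those most like MSX1 were DCLK3 (r = 0.98), SNHG12 and PLK2, and those most like MSX2 were OTULINL (r = 0.98), CKB and ZNF418. BMP4 had few close genes, NELFB (r = 0.92), VAC14-AS1 and ATXN7, and only 3 of 11668 genes were above 0.9, against 539 for RUNX1 and 185 for MSX1. The libraries fall in 4 groups that differ in depth, and these r values describe them without a test.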

How the data were processed

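Newly made RNA was measured in 12 EU-seq libraries, 3 in each of 4 groups taken from the sample labels. The authors deposited raw counts per gene for 23434 Entrez identifiers. Per the submitters' processing notes STAR 2.7.5c, featureCounts 1.4.5-p1 and hg19 were used; annotation and strand setting are not given in the sources used here. Although 40 µg of human RNA was mixed with 10 µg of mouse RNA, the table has no mouse rows, so a change in total new RNA cannot be seen. Symbols came from RefSeq for 23284 rows.

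Counts were tested with edgeR 4.0.16 in R 4.3.3 (quasi-likelihood test, TMM over all genes, Benjamini-Hochberg adjustment over all genes tested, adjusted p under 0.05). Genes entered a fit when their normalized counts averaged over 32. Each comparison used its own 6 libraries, the interaction all 12. Scripts were tested on simulated data. DESeq2 1.42.0, upper-quartile normalization, other filters, the replicate block, a joint fit of the 12 libraries and the omission of single libraries were alternatives. Others were chosen after the data were seen: TMM over the genes tested, and no filter with each library left out. The members, lists, rules and tests were chosen with earlier results of these data known. Named genes are the members, CDK12, the 3 genes most like each tested member, and from each list the 2 largest changes among those past the threshold in a comparison; ID1, ITGB1, COL1A1, SUPT3H and the marker genes were named after their values were seen. Libraries of a group differed beyond sampling noise (chi-square per degree of freedom 2.69 to 9.31), so none was a copy.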

Additional observations from a re-analysis of the deposited data

Results flagged for a closer look

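The response to OHT differed between the libraries labelled shCDK12 and shNT cells, by a test of the interaction, at 5 members. The difference of the log2 responses was 1.54 for RUNX2 (adjusted p = 5.39e-07, edgeR), 0.58 for RUNX1 (adjusted p = 0.00102) and -0.66 for MSX2 (adjusted p = 0.0411, lost in 9 of 12 fits without 1 library). Without the filter on low counts it was -5.70 for TWIST2 (adjusted p = 9.25e-07), a fitted value that depends on 3 counts in the shNT group and is no bound, and 3.44 for SPP1 (adjusted p = 0.014; 0.0644 without shCDK12+OHT replicate 3). The interaction was passed by 45.2% of all genes with the filter, and by 5863 of 21842 genes without it. CDK12 was not past the threshold between shNT and the libraries labelled shCDK12 (adjusted p = 0.447, edgeR). With OHT in both groups it was lower under the label shCDK12+OHT, at -0.88 on the log2 scale (adjusted p = 0.00011, edgeR). Its interaction was -0.83 (adjusted p = 4.55e-05, edgeR). Newly made RNA need not show silencing by an shRNA, so the labels stay unsettled and each direction carries that doubt.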

How the results depend on the processing

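In the libraries labelled shCDK12 against shNT all 5 tested members kept their direction and call in every alternative run on them. The count of members called in shNT+OHT against shNT moved from 1 to 3 with no filter (TWIST2 and BMP4 added), 2 with filterByExpr, 2 with the replicate block and 3 with all 12 libraries in 1 fit, and was 1 to 3 with 1 library left out. In the interaction it moved from 3 to 5 with no filter or filterByExpr and was 2 to 5 with 1 library left out. RUNX2 between the OHT groups passed with DESeq2 (adjusted p = 0.0376), and MSX1 passed in the interaction with DESeq2 (0.0336), upper-quartile normalization (0.0498) and TMM over the genes tested (0.038). MSX1 in shNT+OHT against shNT turned sign, at 0.0051 with DESeq2, and ran from -0.15 to 0.21 with 1 library left out (0.21 without shNT replicate 1 and 0.14 without shNT+OHT replicate 1). Over all genes the count in shNT+OHT against shNT, 1782, was 3256 with all 12 libraries in 1 fit and 670 to 2523 with 1 library left out, and that between the OHT groups, 5298, was 3520 to 6238 with 1 library left out. The causes were not tested. Whether replicate numbers mark a pairing was not settled. The r of deviations ran from -0.092 to 0.30 for the same number (median 0.028, 2 of 18 pairs over 0.1). For different numbers it ran from -0.34 to 0.0996 (median -0.019, 0 of 36 pairs over 0.1). With the replicate block BMP4 passed in shNT+OHT against shNT at -0.74 on the log2 scale (adjusted p = 0.0186, edgeR), and no other member's call changed. Depth limits the 4 members with few counts and the shNT+OHT group most.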
